A study of Mus musculus with 48 samples.

Results

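The CB1-WT mice of both conditional lines were compared with each other: 10 Glu-CB1-WT against 13 GABA-CB1-WT hippocampal libraries, chosen by their labels alone, 23 of the 48 libraries of the series. The Glu line was bred from nex-cre and CB1f/f mice and the GABA line from dlx5/6-cre and CB1f/f mice. In the CB1-KO littermates, Cre under the regulatory elements of Nex removes the receptor from glutamatergic neurons and Cre under those of Dlx5/6 removes it from GABAergic neurons. The labels do not state which floxed or Cre alleles the CB1-WT mice carried. Of the Glu-CB1-WT mice, 5 were in the basal (home cage) state and 5 had been exposed to an open field for 5 min, against 6 and 7 of the GABA-CB1-WT mice. For the open field mice of the GABA line, the study's text gives the sizes of the CB1-WT and CB1-KO groups the other way round. The labels were followed, and Cnr1 was higher in every library labelled CB1-WT than in any labelled CB1-KO. All were males, aged 8 weeks by the labels and 8 to 10 weeks by the study's text. RNA came from the CA region after the dentate gyrus had been removed. By the study's methods, tissue was taken after a delay following the open field, and the samples were selected on dissection purity, behaviour and neuronal activity. Library numbers run from 1 to 24 in the Glu line and from 25 to 48 in the GABA line, and each line has its own breeding history. The driver line, the breeding history and the order of the libraries can therefore not be told apart in any value below.

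CB1, encoded by Cnr1, is a G protein-coupled receptor on axon terminals that lowers transmitter release when endocannabinoids made by the postsynaptic cell bind it. In the hippocampus it is abundant on cholecystokinin interneurons and sparse, but functional, on glutamatergic terminals. Each conditional mutant is usually read against its own wild-type littermates, since inbred lines kept apart can drift and can carry different stretches of chromosome beside a transgene.

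The libraries held between 26.1 and 34.1 M (mega) counted reads. The median was 30.1 M in the Glu line (n = 10) and 31.4 M in the GABA line (n = 13), and the difference of the means was not significant (2-sided permutation test, adjusted p = 0.323 over 3 measures). Neither the number of genes with a count nor the share of reads in the 10 highest genes differed by that test (adjusted p = 0.323 for each). Between libraries of the same state, Spearman's rho over the tested genes was 0.994 to 0.998 within a line and 0.994 to 0.998 between lines. On the first principal component, which held 46.3% of the variance, 7 libraries stood apart from the other 16. They were replicates 1 and 3 of the basal and replicates 1 and 5 of the open field Glu-CB1-WT mice, and replicates 1 and 5 of the basal and replicate 1 of the open field GABA-CB1-WT mice, that is 4 of 10 and 3 of 13. In these 7, Xkr4 was at 3.21 to 5.05 counts-per-million (CPM), against at least 19.6 CPM in the other 16, and the NMDA receptor subunit gene Grin2b was at 22.4 to 53.5 against 97.2 to 169.9 CPM. Values without these libraries are given below for the count of called genes and for the differences that moved most. In the Glu line, the 4 libraries apart were those with the 4 lowest animal numbers (the last number of the label) among the 10 Glu-CB1-WT libraries. In the GABA line, the 3 libraries apart were not the 3 with the lowest animal numbers. This order was seen after the split was known. The labels do not say what the animal numbers stand for, and the cause of the split was not tested.

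No gene passed the test between the CB1-WT mice of the lines. Of 15350 genes tested with edgeR's quasi-likelihood test and state as a covariate, 0 passed an adjusted p of 0.05 (0%), and the smallest adjusted p was 0.9999. At an unadjusted p under 0.05 there were 593 genes, 294 higher and 299 lower in the Glu line, which is 3.86% of those tested. DESeq2 called 0 as well, with 570 at an unadjusted p under 0.05. In no gene did the CPM values of the 10 Glu-CB1-WT libraries lie entirely above or below those of the 13 GABA-CB1-WT libraries (0 of 15350, 0%). Without the 7 libraries that stood apart, edgeR still called 0 of 15378 genes. The smallest adjusted p was then 0.274. An unadjusted p under 0.05 was found for 1384 genes, more than the 593 with all libraries, so the main fit alone does not show how even the lines are.

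The data were precise enough to bound most differences. The median standard error of the line difference was 0.05 on the log2 scale, and the 95% interval lay within a 1.5-fold change in either direction for 14659 of 15350 genes, or 95.5%. For the 9819 genes with a mean of at least 10 CPM, the interval lay within 1.2-fold for 97.1% and within 1.1-fold for 78.5%. For the 5531 genes below 10 CPM those shares were 44.1% and 7.97%, so a change of that size in a gene of low level was often not detectable at this depth.

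Other contrasts in libraries of the same study did yield differentially expressed genes. In the same 23 libraries and the same model, the open field term called 197 of 15350 genes (1.28%), 162 of them higher after exposure. Fosb, an activity-induced transcription factor gene, was at 3.71 to 6.24 CPM in the basal and 9.59 to 20.3 CPM in the open field Glu-CB1-WT mice, and at 3.65 to 5.98 and 10.1 to 16.4 CPM in the GABA-CB1-WT mice. The states did not overlap in either line, whereas the lines overlapped within each state. The log2 difference of Fosb was 1.51 ± 0.12 (SE) between states (adjusted p = 4.12e-08, edgeR) and 0.12 ± 0.12 between lines. Without the 7 libraries that stood apart its line difference was 0.34 (adjusted p = 0.448). Between the CB1-KO mice of the lines, 14 against 11 libraries, the model called 441 of 15389 genes (2.87%). Of these, 261 had the higher level in the Glu line and 180 in the GABA line. The CPM values of 14 genes did not overlap between those lines (0.091% of the genes tested).

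**Figure D1:**
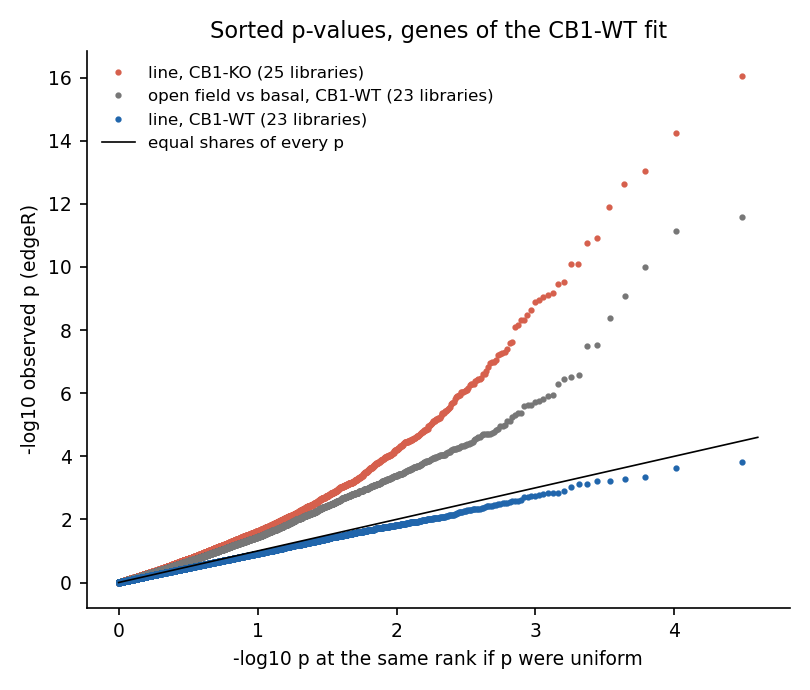
Sorted p-values of edgeR's quasi-likelihood test for the genes of the CB1-WT fit, plotted as -log10 against the value that the same rank would have if p were spread evenly (black line). The line contrast in 23 CB1-WT libraries (blue) stays at or below the black line, whereas the open field contrast in the same libraries (grey, 197 genes called) and the line contrast in 25 CB1-KO libraries (red, 441 genes called) rise above it.

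Cnr1, the gene deleted in the mutants, did not pass the test between the CB1-WT mice. It lies at chr4:33924632-33948831 (mm10). In Glu-CB1-WT libraries it ranged from 329.7 to 412.4 CPM with a median of 374.6, and in GABA-CB1-WT libraries from 310.4 to 392.6 CPM with a median of 366.2. The log2 difference was 0.05, with a 95% interval from -0.04 to 0.13 (unadjusted p = 0.26, edgeR). In CB1-KO libraries it was at 203.2 to 250.2 CPM in the Glu line and at 100.9 to 158.6 CPM in the GABA line, below every CB1-WT library.

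The loci from which the Cre drivers take their regulatory elements did not pass it either. Neurod6, the neuronal transcription factor gene formerly called Nex, had a median of 347.9 CPM in Glu-CB1-WT (305.5 to 400.6) and 332.4 CPM in GABA-CB1-WT libraries (301.5 to 368.3). The groups overlapped, and the log2 difference was 0.06 with an interval from -0.03 to 0.15. In Glu-CB1-KO libraries Neurod6 was at 198.5 to 258.8 CPM, below all 11 GABA-CB1-KO libraries (302.1 to 363.1 CPM).
Gm3279, a predicted gene about which little is known, lies beside it at chr6:55684571-55694574, with Neurod6 at chr6:55677819-55681263. It was close to background in the CB1-WT mice, at 0.152 to 0.456 CPM in the Glu and 0.247 to 0.579 CPM in the GABA line, and was at 1.76 to 4.22 CPM in Glu-CB1-KO and 0.207 to 0.501 CPM in GABA-CB1-KO libraries.
At the other driver locus, the interneuron transcription factor gene Dlx5 had medians of 2.83 and 2.62 CPM in Glu-CB1-WT and GABA-CB1-WT libraries, with a log2 difference of 0.12 and an interval from -0.01 to 0.24. Its neighbour Dlx6 differed by 0.01 (interval -0.19 to 0.22) and the antisense transcript gene Dlx6os1 by 0.09 (interval -0.12 to 0.31). None of these had an unadjusted p under 0.05 in the CB1-WT mice. Without the 7 libraries that stood apart, Cnr1 differed by 0.10, Dlx6os1 by 0.23 and Dlx6 by 0.05, none with an adjusted p under 0.05.

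Genes of somatostatin interneurons were lower in Glu-CB1-WT mice at an unadjusted p, but none passed the adjustment. Sst, the neuropeptide somatostatin, ranged from 69.4 to 134.1 CPM with a median of 89.1 in Glu-CB1-WT libraries and from 94.5 to 126.2 CPM with a median of 103.7 in GABA-CB1-WT libraries. Of the 10 Glu-CB1-WT libraries, 7 lay below the lowest GABA-CB1-WT library, and basal replicate 3 of the Glu line was the highest of all 23. The log2 difference was -0.20 (interval -0.36 to -0.03, unadjusted p = 0.0214, edgeR). Crhbp, which encodes a binding protein of corticotropin-releasing hormone, differed by -0.19 (interval -0.35 to -0.03), with medians of 20.2 and 23.5 CPM. The neuropeptide gene Npy differed by -0.16 (interval -0.31 to -0.01), with medians of 27.3 and 31.2 CPM. Rab3b, a small GTPase gene of synaptic vesicles, differed by -0.19 (interval -0.30 to -0.07), with medians of 35.9 and 42.2 CPM. Of the 9 tested markers of somatostatin interneurons, these 4 had an unadjusted p under 0.05, all lower in the Glu line, and 0 had an adjusted p under 0.05. Of the others, Elfn1, Pnoc, Nos1 and Reln were at -0.10 to 0.06. The median of the 9 was -0.10, beside 0.00 over all genes tested, and -0.04 without the 7 libraries that stood apart. Without those libraries, the log2 differences of Sst, Crhbp, Npy and Rab3b were -0.20, -0.26, -0.18 and -0.19, and the lowest adjusted p of the 4 was 0.361. In bulk tissue, fewer cells of a type and less RNA per cell cannot be told apart.

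In the CB1-KO mice the same genes stood the other way round. Sst was at 96.6 to 147.5 CPM in Glu-CB1-KO and 81.2 to 98.4 CPM in GABA-CB1-KO libraries, a log2 difference of 0.48 ± 0.05 (SE, adjusted p = 1.42e-07, edgeR). The difference between the CB1-KO and the CB1-WT contrast was 0.67 ± 0.09 for Sst, 0.91 ± 0.11 for Crhbp, 0.73 ± 0.09 for Npy and 0.38 ± 0.07 for Rab3b, with adjusted p of 5.4e-06, 1.48e-07, 2.8e-07 and 0.00177. Over all genes that interaction called 124 of 15570 (0.796%). The study had named Sst, Crhbp, Npy and Rab3b as changed in opposite directions in the mutants, from these same libraries. Their interaction p-values are therefore a description and not an independent test. That choice used the CB1-WT libraries too, so it also bears on the CB1-WT differences of these genes given above.

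**Figure D2:**
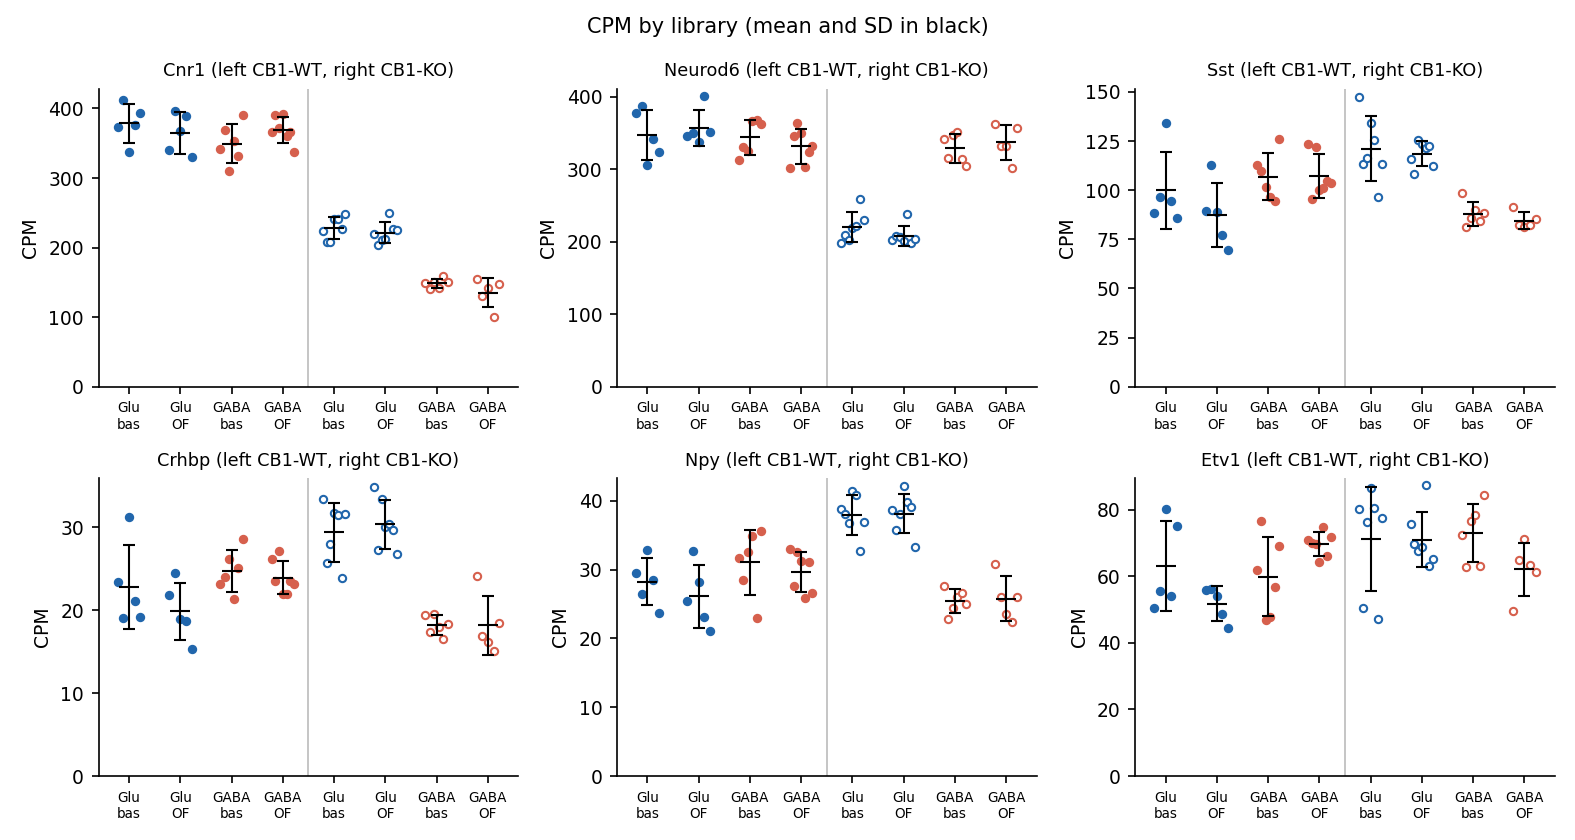
CPM of Cnr1, Neurod6, Sst, Crhbp, Npy and Etv1 in each library (points; blue, Glu line; red, GABA line; filled, CB1-WT; open, CB1-KO; bas, basal; OF, open field), with the mean and SD of each group in black. The CB1-WT groups overlap for Cnr1 and Neurod6, and the CB1-KO groups do not; for Etv1 the open field CB1-WT mice of the Glu line (44.4 to 56.1 CPM) lie below those of the GABA line (64.3 to 74.7 CPM).

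The remaining genes that the study names did not pass the test in the CB1-WT mice either. Adgrl2, a latrophilin gene marking the CA region, had medians of 71.8 and 86.1 CPM in Glu-CB1-WT and GABA-CB1-WT libraries, a log2 difference of -0.17 (interval -0.34 to -0.01), and the LIM-domain-binding gene Ldb2 had medians of 33.5 and 41.5 CPM, a difference of -0.23 (interval -0.44 to -0.01). Both had an unadjusted p under 0.05 (0.0349 and 0.0374, edgeR). Tdo2, a marker of dentate granule cells, was present at 3.16 to 7.74 CPM in the Glu and 2.97 to 10.6 CPM in the GABA line and differed by -0.18 (interval -0.55 to 0.20).
Kcnn2, a calcium-activated potassium channel gene, differed by 0.00 (interval -0.07 to 0.07), and Sptb, which encodes a spectrin of the membrane skeleton, by 0.05 (interval -0.01 to 0.11). The adaptor gene Blnk differed by -0.05 (interval -0.24 to 0.14), and Pdlim1, an actin-associated PDZ and LIM protein gene, by -0.03 (interval -0.19 to 0.13), although Blnk and Pdlim1 were among the 14 genes that did not overlap between the CB1-KO mice.
Of the activity-regulated genes, Bdnf differed by 0.01 (interval -0.11 to 0.14), Arc by 0.04 (interval -0.28 to 0.35) and Nr4a2 by -0.09 (interval -0.31 to 0.14). Grin2b, which followed the 7 libraries that stood apart, differed by 0.08 with a wide interval, from -0.57 to 0.73. Without those 7 it differed by 0.28 (adjusted p = 0.361), Tdo2 by -0.37, Arc by 0.14, Nr4a2 by -0.02, Bdnf by 0.04 and Kcnn2 by -0.03, none of them called.

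The genes with the smallest p are given here although none passed the adjustment; they were chosen after their values were seen, as up to 6 in each direction with a mean of at least 10 CPM. Lifr, the receptor of leukaemia inhibitory factor, came first. It had a median of 83.8 CPM in Glu-CB1-WT (77.3 to 92.8) and 76.3 CPM in GABA-CB1-WT libraries (67.2 to 84.3), a log2 difference of 0.14 (unadjusted p = 0.000152, adjusted p = 0.9999, edgeR). In the CB1-KO mice the same difference was 0.03 ± 0.04 (SE). Marf1, Nucks1, Ddx10, Zkscan1 and Trip4 were higher in Glu-CB1-WT mice by 0.08 to 0.11, and Ngef, Igfbp7, Dym and Trappc2l differed by -0.21 to -0.06. Rab3b was also among the lower genes. Of these 10 genes, Lifr included and Rab3b left out, the chromatin protein gene Nucks1 was called in the CB1-KO contrast in the same direction (0.14 ± 0.03, adjusted p = 0.0292), and the others were not called there. Ngef, a guanine nucleotide exchange factor gene, differed by -0.16 ± 0.04 in the CB1-WT and by -0.01 ± 0.04 in the CB1-KO mice.

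Within the basal state, 0 of 15150 genes were called (0%), with 617 at an unadjusted p under 0.05 and 0 called by DESeq2, where 549 had an unadjusted p under 0.05. Within the open field, 1 of 15066 genes was called by edgeR (0.00664%) and 7 by DESeq2. The gene called by both was Etv1, an ETS transcription factor gene, named here after its values were seen. In the 5 open field Glu-CB1-WT libraries Etv1 was at 55.9, 56.1, 54.0, 48.7 and 44.4 CPM, and in the 7 GABA-CB1-WT libraries at 71.0, 70.1, 69.8, 64.3, 74.7, 66.2 and 71.7 CPM, so the groups did not overlap. The log2 difference was -0.43 ± 0.06 (SE, adjusted p = 0.0226, edgeR). The other 6 that DESeq2 called were Rab3b (-0.27, adjusted p = 0.0379), Fras1, Fam189a1 and Arnt2, lower in the Glu line, and Rnf112 and Lrrc10b, higher in it, also named after their values were seen.
In the basal state the difference was 0.08 ± 0.15, with Glu-CB1-WT libraries at 50.5 to 80.3 and GABA-CB1-WT libraries at 46.7 to 76.7 CPM. The difference between the states was not called (interaction -0.51 ± 0.17, adjusted p = 0.824), and in the CB1-KO mice of both states Etv1 differed by 0.08 ± 0.09. The call was lost under 7 of the 12 omissions of a single library, without the libraries that stood apart and with the replicate number as a block. Over all genes the line by state interaction called 0 of 15350 (0%), with 864 at an unadjusted p under 0.05, and 0 by DESeq2, with 839. For the 197 genes called for the open field, the line by state interaction had a median of -0.02 on the log2 scale. It necessarily called 0 of them, and 7 had an unadjusted p under 0.05.

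The 441 genes called between the CB1-KO mice of the lines were followed in the CB1-WT mice, which share no library with them. All 441 were tested there. The 261 that were higher in Glu-CB1-KO mice had a median log2 difference of 0.20 in CB1-KO and of 0.01 in CB1-WT mice, and 148 of them had the same sign in both. The 180 that were lower had medians of -0.19 and 0.01, with the same sign in 80. In all, 228 of 441 (51.7%) had the same sign. An unadjusted p under 0.05 in the CB1-WT mice was found for 33 of the 441, or 7.48% beside 3.86% of all genes tested, and 24 of the 33 had the same sign as in the CB1-KO mice. For 413 of the 441, the 95% interval of the CB1-WT difference did not hold the CB1-KO value, and for 117 the contrasts themselves differed at an adjusted p under 0.05. The CB1-KO values come from the contrast that chose the 441 genes and are a description. So are the counts of 413 and 117, which use those values.

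Among the 14 genes whose CB1-KO libraries did not overlap between the lines, the 95% interval of the CB1-WT difference held 0 for all but Npy. The semaphorin gene Sema4f was at 58.9 to 66.8 CPM in Glu-CB1-KO and 68.3 to 81.4 CPM in GABA-CB1-KO libraries and differed by 0.05 in the CB1-WT mice (interval -0.01 to 0.11). The immediate early gene Ier5 was at 25.4 to 30.3 and 15.8 to 24.6 CPM and differed by -0.03 in the CB1-WT mice (interval -0.16 to 0.10). Ankrd33b, Dner, Gadd45g, Lmo2, Wnt11 and Tbpl1 had CB1-WT differences between -0.05 and 0.25. The largest CB1-WT difference among the 441 was that of BC002163, at -1.06, where open field replicates 3 and 7 of the GABA-CB1-WT mice were at 9.03 and 8.58 CPM and the other CB1-WT libraries at 0.749 to 1.34 CPM. It was named after its values were seen. Its CB1-KO call also rested on a few libraries, since basal replicates 1 and 2 and open field replicate 3 of the GABA-CB1-KO mice were at 9.17, 9.26 and 8.51 CPM and the other CB1-KO libraries at 0.753 to 1.43 CPM. The high level of BC002163 was thus seen in libraries of the GABA line alone, among all 48.

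**Figure D3:**
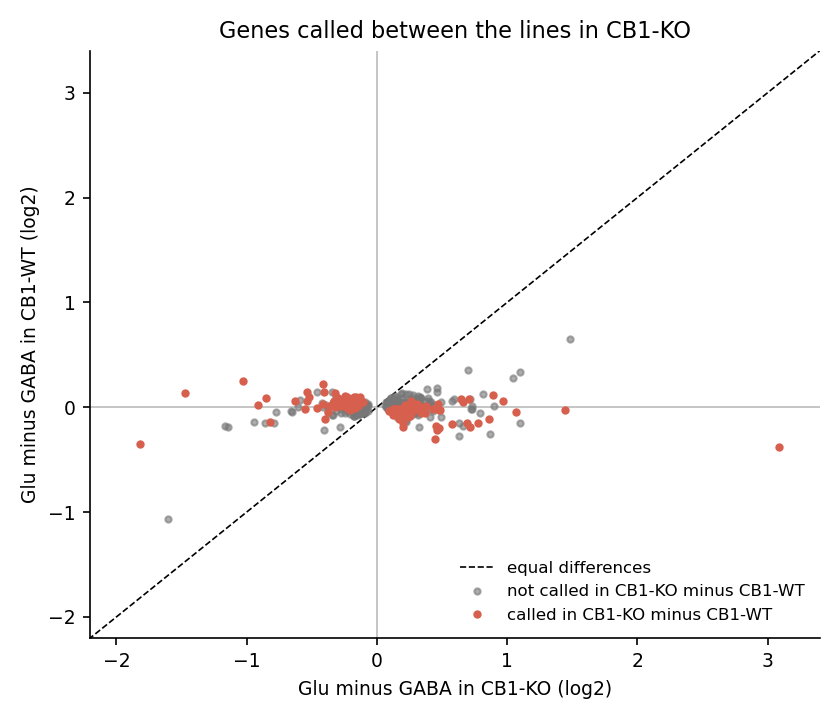
Log2 difference between the lines (Glu minus GABA) in CB1-WT mice against that in CB1-KO mice, for the 441 genes called in CB1-KO mice (points); red points are the 117 for which the contrasts differed at an adjusted p under 0.05, and the dashed line marks equal differences. Most points lie along the horizontal axis; those farthest from it are BC002163 at -1.06 and Dnah6 at 0.66, both named after their values were seen.

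Since 0 genes were called over all genes tested, the 14 gene lists of pathways necessarily held 0 calls in the CB1-WT mice. Of 33 tested genes known to vary between mouse strains, 1 had an unadjusted p under 0.05 (Hc, complement component C5, 0.39 with an interval from 0.04 to 0.74), and the list's median was -0.01. That share was 3.03%, beside 3.86% of all genes tested. Nnt, the mitochondrial transhydrogenase gene that is truncated in some C57BL/6 substrains, was at 44.1 to 49.4 CPM in Glu-CB1-WT and 42.3 to 49.3 CPM in GABA-CB1-WT libraries. Gabra2, a GABA-A receptor subunit gene, was at 173.8 to 238.1 and 167.0 to 227.4 CPM, and the glyoxalase gene Glo1 at 51.1 to 58.0 and 52.1 to 57.8 CPM. The groups overlapped for each of these.
The endocannabinoid list had 15 tested members, 0 of them with an unadjusted p under 0.05, and differences from -0.04 (Abhd4) to 0.09 (Napepld). The 2-arachidonoylglycerol enzymes Dagla and Mgll differed by 0.03 and -0.02, and Faah, which degrades anandamide, by 0.02. All 15 intervals lay within 1.5-fold. Of 35 immediate early genes, 19 were called for the open field, beside 197 of all 15350 genes tested (1.28%). All 35 line intervals lay within 1.5-fold. The list's median line difference of 0.03 was 0.13 without the 7 libraries that stood apart. Among the 14 pathway lists, the highest shares at an unadjusted p under 0.05 were those of the neuropeptide precursors, with 4 of 31 (Adcyap1 and the somatostatin interneuron genes Sst, Npy and Crhbp, already given above, all lower in the Glu line, median -0.08), and the glutamate receptors, with 3 of 34 (Grik3, Grm4 and Grm8, all lower, median -0.01). These shares were 12.9% and 8.82%, beside 3.86% of all genes tested. Adcyap1, the neuropeptide PACAP, had medians of 1.64 CPM in Glu-CB1-WT and 2.24 CPM in GABA-CB1-WT libraries and differed by -0.74 (interval -1.23 to -0.25, unadjusted p = 0.00489, edgeR). A few GABA-CB1-WT libraries were high, with 200 and 145 counts in basal replicates 1 and 6 and 108 in open field replicate 1. The other GABA-CB1-WT libraries held 43 to 82 counts and the Glu-CB1-WT libraries 21 to 79. Without the 7 libraries that stood apart Adcyap1 differed by -0.59 (adjusted p = 0.52, edgeR). In circadian clock genes the median was -0.08, with 1 of 20 at an unadjusted p under 0.05, and -0.15 without the 7 libraries. Medians of the ribosomal protein (62 tested), respiratory chain (72), potassium channel (59), GABA (24), heat shock (24), glucocorticoid-induced (25), interferon-stimulated (30) and antigen presentation (22) lists lay between -0.02 and 0.06.

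The 14 lists of cell type markers held 0 calls for the same reason, as no gene was called. Summed over the list, markers of CA1 pyramidal cells had medians of 986.9 CPM in Glu-CB1-WT and 1072 CPM in GABA-CB1-WT libraries, those of CA3 and CA2 cells lay at 681.0 to 937.4 and 683.7 to 891.8 CPM, and both sums overlapped between the lines. The median of the CA3 and CA2 markers was 0.05, and 0.10 without the 7 libraries that stood apart. All 10 CA1 markers were below 0 in the line difference (highest -0.03, Fibcd1), with a median of -0.08 that was -0.16 without the 7 libraries that stood apart, and 1 of them, Wfs1, had an unadjusted p under 0.05 (-0.22). Those of dentate granule cells were at 203.6 to 340.1 and 223.1 to 464.5 CPM, so these markers were detected in every library. Sums for oligodendrocytes (3960 to 5133 and 3754 to 6093 CPM), astrocytes (6295 to 7303 and 6124 to 7161 CPM), microglia (561.7 to 726.0 and 552.6 to 667.4 CPM) and vascular cells (371.8 to 556.8 and 463.1 to 551.3 CPM) overlapped as well. All 20 tested vascular markers were below 0 in the line difference (highest -0.02, Abcc9), and 3 of them, Slco1a4, Abcb1a and Itm2a, had an unadjusted p under 0.05. They had a median of -0.10 that was -0.01 without the 7 libraries that stood apart.
Choroid plexus markers depended on 1 library. Their sum was 2427 CPM in basal replicate 3 of the GABA-CB1-WT mice, against a median of 266.4 CPM in that line, and Ttr, the transthyretin gene, was at 1386 CPM there and at 15.3 to 75.6 CPM in the other CB1-WT libraries. The list's median of -0.48 became 0.21 without that library. The same library had the highest sum for dentate granule cells and for meninges, whose median of -0.17 became -0.08 without it. Without it the median of the dentate granule cell markers went from 0.03 to 0.11, that of the interferon-stimulated genes from 0.06 to 0.10 and that of the thalamus markers from -0.04 to -0.02, and edgeR called 0 genes with and without it, with 593 and 629 at an unadjusted p under 0.05.

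**Figure D4:**
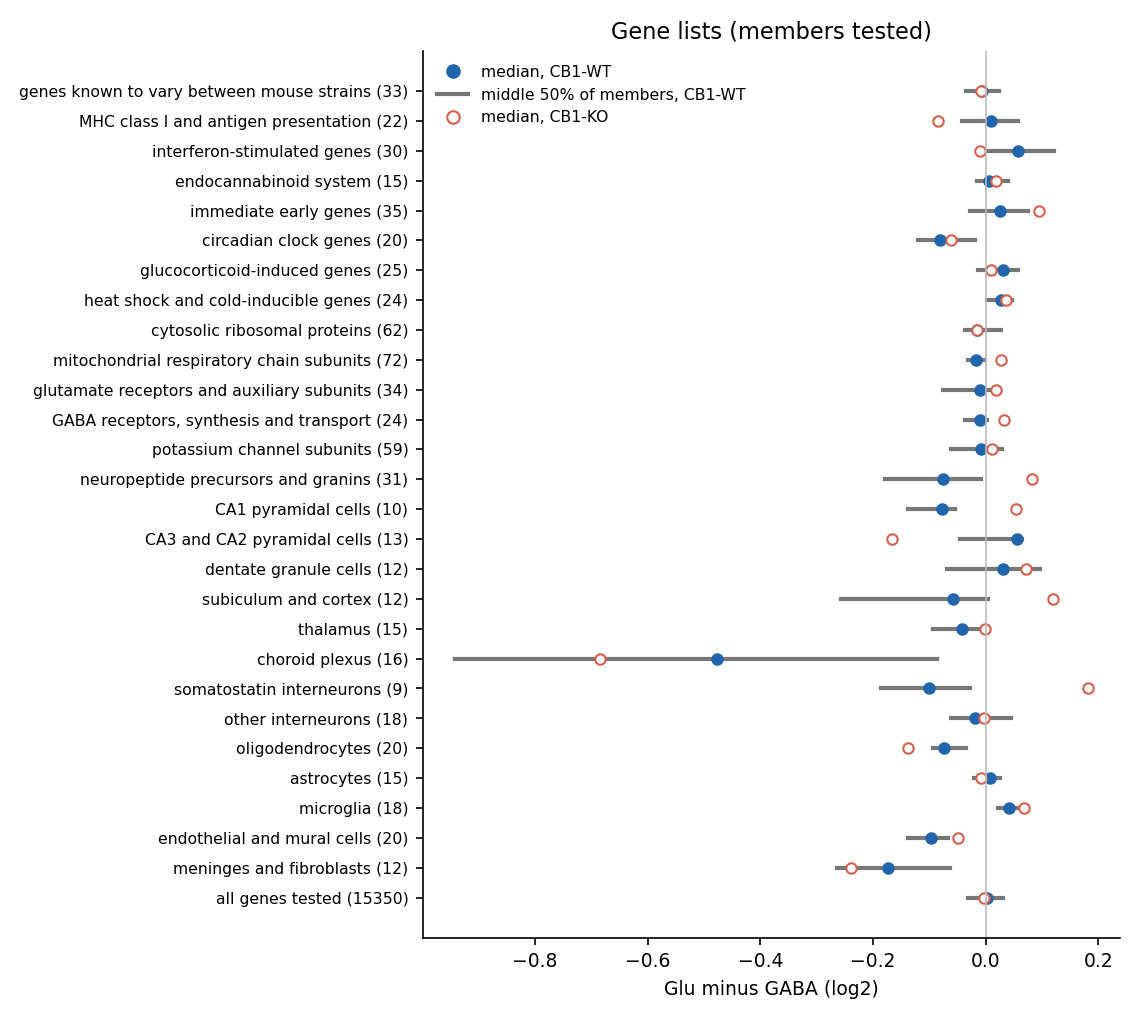
Median log2 difference between the lines (Glu minus GABA) for each gene list with more than 1 tested member (number tested in brackets), in CB1-WT mice (blue points, with the middle 50% of members as grey bars) and in CB1-KO mice (open red points). The CB1-WT medians other than those of the choroid plexus (-0.48) and meninges (-0.17) lie between -0.10 and 0.06.

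By position, no chromosome and no stretch held a concentration of called genes, since 0 were called. The share at an unadjusted p under 0.05 was between 2.42% on chromosome 3 and 5.6% on chromosome 9 for the autosomes and chromosome X. In tiles of 5 Mb with at least 10 genes tested, the median share was 3.41% over 439 tiles, and the highest was 5 of 13 genes on chromosome 5, between 40000001 and 45000000.

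A small number of genes did fall at separate levels among the CB1-WT mice. In a scan of 14271 genes with at least 1 CPM in some library, 32 had a gap of at least 0.8 on the log2 scale between neighbouring libraries, with at least 2 libraries on either side. In 27 of them the gap separated the 7 libraries that stood apart from the other 16. The remaining 5 genes were Gm15446, BC002163, Gh, Wibg and Egr2, named after their values were seen, and in none of the 32 did the gap separate the lines.

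Wibg, now Pym1 in RefSeq, encodes a partner of the exon junction complex and lies at chr10:128747879-128766568. Its CB1-WT libraries fell at 3 levels, at most 13.9 CPM, from 30.7 CPM and from 54.5 CPM upwards, with gaps of 16.4 and 16.7 CPM between them and no other gap above 2.34 CPM. In Glu-CB1-WT mice 2 libraries were at the low, 3 at the middle and 5 at the high level. In GABA-CB1-WT mice these counts were 3, 9 and 1. The same levels occurred in CB1-KO mice, with 5, 7 and 2 of the Glu line and 3, 7 and 1 of the GABA line. The line difference was 0.40 (interval -0.13 to 0.93, unadjusted p = 0.134, edgeR), and 0.23 without the 7 libraries that stood apart, and both lines held all 3 levels.

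Gm15446, a gene with little described function at chr5:109933563-109941710, was above 1 CPM in the GABA line alone, among all 48 libraries. It had 0 counts in each of the 10 Glu-CB1-WT libraries, which allows up to 0.115 CPM in the shallowest of them (3 counts, counting error only). In GABA-CB1-WT mice it was at 2.01, 2.58, 2.54 and 2.58 CPM in basal replicates 1, 2, 3 and 6 and at 2.55 CPM in open field replicate 3, with 0 or 1 count in the other 8. These 5 libraries, with 63 to 83 counts, stood clear of all other CB1-WT libraries. Its unadjusted p was 0.00179 and its adjusted p 0.9999 (edgeR). In the CB1-KO mice, which this choice did not use, 3 of 11 GABA-CB1-KO and 0 of 14 Glu-CB1-KO libraries were above 1 CPM, a level set after seeing the CB1-WT values (2-sided Fisher's exact test, p = 0.0717).
Gh, the pituitary growth hormone gene, ranged from 0 to 41.4 CPM in Glu-CB1-WT and from 1.73 to 43.6 CPM in GABA-CB1-WT libraries, so its spread within each line exceeded the difference between them.

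**Figure D5:**
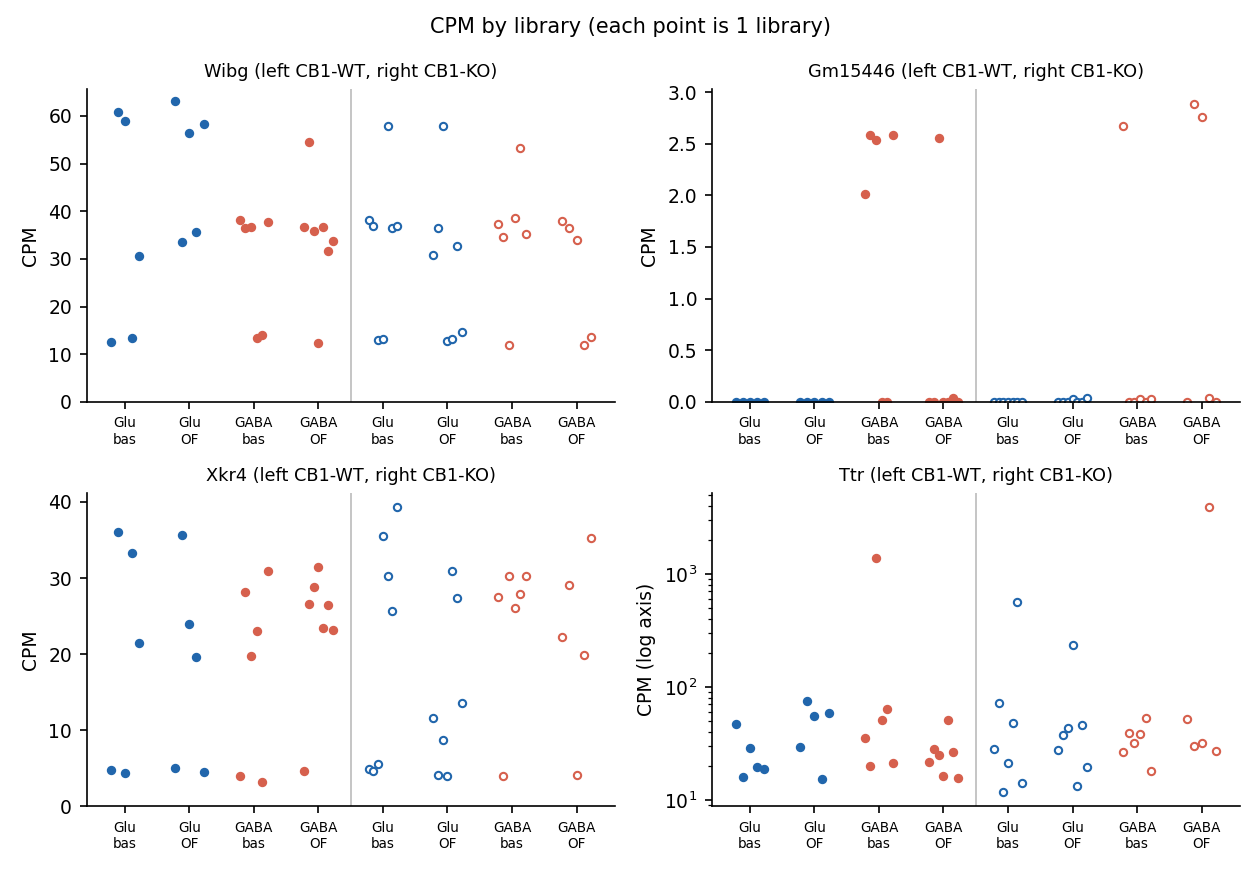
CPM of Wibg, Gm15446, Xkr4 and Ttr in each library (points; blue, Glu line; red, GABA line; filled, CB1-WT; open, CB1-KO; bas, basal; OF, open field; log axis for Ttr). Wibg shows 3 levels in both lines, Gm15446 is above 1 CPM in 5 of 13 GABA-CB1-WT and 0 of 10 Glu-CB1-WT libraries, Xkr4 marks the 7 CB1-WT libraries that stood apart, and Ttr reaches 1386 CPM in 1 basal GABA-CB1-WT library.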

How the data were processed

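RNA from the CA region was amplified (NuGEN Ovation), sequenced as single reads of 50 bases and, by the authors, trimmed, aligned with STAR 2.6.0a to mm10 and counted per gene with featureCounts 1.6.2 for the reverse strand. The authors deposited raw counts for 24421 genes with exon coordinates and gene lengths; lengths were not used. Amplification of small inputs can add noise between libraries.

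Counts were filtered with filterByExpr, scaled by TMM and tested with edgeR 4.0.16 (quasi-likelihood test, Benjamini-Hochberg threshold 0.05), Glu line minus GABA line. CPM used TMM over all 48 libraries. Intervals are 95% and use the fit's standard error. Principal components used the 500 most variable genes of log2(CPM + 2). The scan for separate levels used log2(CPM + 0.25). The code was tested on simulated data. Alternatives included DESeq2 1.42.0, RLE scaling, other filters, a fit of all libraries, a replicate block and omission of each library; leaving out the 7 libraries apart, or using the first component as a covariate, was added after seeing the data. Named genes were Cnr1, the driver loci, the study's own genes and any called; others are marked where named. Some genes that these rules select are not reported here. Members and lists were chosen with earlier results of these data known.

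Labels give replicate numbers within groups and a last number read as the animal, but nothing ties either to a litter or day. Labels do not say how the mice of a group relate, so p-values measure the spread between these libraries. In no group did a pair of libraries agree within counting noise. Counting error alone limits the floor of 3 counts.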

Additional observations from a re-analysis of the deposited data

Results flagged for a closer look

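Within the 4 CB1-WT groups, 100 sets of values (the 22 genes named by rule and 3 library measures) were examined for a library far from the others of its group, by the gap to its nearest neighbour relative to the range; chance alone marks about 1 in 20 sets, and 5 were marked. Sst was at 134.1 CPM in basal replicate 3 of the Glu-CB1-WT mice, with the others of that group at 86.0 to 96.3 CPM. In the same library Bdnf was at 43.1 CPM, against 51.5 to 53.3 CPM. Bdnf was at 44.4 CPM in open field replicate 5 of the Glu-CB1-WT mice, against 57.1 to 60.1 CPM. Both libraries are among the 7 that stood apart on the first component. Neurod6 was at 400.6 CPM in open field replicate 4 of the Glu-CB1-WT mice, against 337.7 to 351.5 CPM. Arc was at 119.5 CPM in basal replicate 2 of the GABA-CB1-WT mice, against 75.3 to 86.3 CPM. No gene passed the test of a difference between the states in the line contrast (0 of 15350 by edgeR).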

How the results depend on the processing

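The line difference in CB1-WT mice gave 0 calls under every alternative that used both states, with 546 to 1384 genes at an unadjusted p under 0.05, and 0 without any of the 23 libraries in turn (at most 901). With open field libraries only it gave 1. The open field contrast gave 1 call by edgeR, 7 with DESeq2, 0 with the replicate block, 0 without the libraries that stood apart and 0 to 1 without each library; the call was lost without replicates 3 or 4 of the Glu-CB1-WT or replicates 1, 2, 3, 5 or 7 of the GABA-CB1-WT mice. The cause was not tested. The basal contrast and the interaction gave 0 throughout. The CB1-KO contrast gave 646 with DESeq2 and 365 with the replicate block beside 441, and its difference from the CB1-WT contrast 177 and 89 beside 124. Tiles of 2 or 10 Mb held 0 called genes. The replicate block gave 0 calls in the CB1-WT contrast, as without it; same-numbered libraries of different groups correlated at -0.27 to 0.54 in their deviations (median 0.23, against -0.02 for other numbers), and 8 of 23 had their closest match in another group under their own number. Genes under 10 CPM limit the precision.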
